A study of Mus musculus with 2 samples.

Results

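Small nucleolar RNAs (snoRNAs), small Cajal body RNAs (scaRNAs) and the genes named as their hosts were described in nuclear RNA of mouse macrophages. Members were the genes with a symbol of the form Snord, Snora, Scarna or Snhg followed by a digit, plus Gas5, that had 10 or more expected counts summed over both libraries. An expected count is the number of reads that the quantifier assigned to a gene, and it need not be whole. Of 166 genes with such a symbol, among 55536 genes in all, 27 were members. They were 4 of 99 box C/D snoRNA genes, 5 of 42 box H/ACA snoRNA genes, 4 of 9 scaRNA genes and 14 of 16 host genes. Host genes were taken by symbol alone, without asking that each holds a small RNA gene. Among them Snhg11 is annotated as protein-coding and Snhg7os as antisense. The threshold was reached by 13 of the 150 snoRNA and scaRNA genes (8.67%), against 30.2% of all genes. The members were chosen by their summed expected counts, so their levels are a description. The threshold fell between Snhg10 and Snhg11, at 10 counts each, and Snora78 at 8 and Scarna3a at 6 counts, both without a count in replicate 2.

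The cells were primary bone marrow-derived macrophages of strain C57BL/6J, given 100 ng/ml Lipid A, the TLR4-binding part of bacterial endotoxin, for 12 hours. After a washout of 12 hours they received 100 ng/ml Lipid A again, for 20 minutes. The labels call the fraction nuclear and, in the sample description, nucleoplasmic. All cells were in this single group, so no treated and untreated cells were compared. The 2 libraries, biological replicates 1 and 2, carry the same donor label, and nothing in the labels says that they stem from separate animals, so the spread between them may be technical. RNA was depleted of ribosomal RNA, replicate 1 started from 1 µg and replicate 2 from 500 ng, and the recorded size range was 250 to 400 in both. Library, input and every other property of a replicate cannot be told apart. Expected counts in genes totalled 21954179 for replicate 1 and 17739520 for replicate 2, and a count of 0 allowed up to 0.137 and 0.169 CPM, counts scaled to a common library total, in these libraries. All 9 macrophage markers, such as Lyz2 and Csf1r, were at 1 TPM or more (47.7 to 1411 TPM, the usual level per transcript length). All 12 markers of lymphocytes, neutrophils, erythroid cells and stroma were under 1 TPM.

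SnoRNAs are short nuclear RNAs that act with proteins as guides. Box C/D snoRNAs direct methylation of the ribose in ribosomal RNA, and box H/ACA snoRNAs direct the change of uridine to pseudouridine. A few members of each class act in cutting the ribosomal RNA precursor instead. ScaRNAs carry the same boxes, reside in Cajal bodies and guide modification of the small nuclear RNAs of the spliceosome. In vertebrates most snoRNAs are cut out of introns of a host gene after splicing. Gas5 and the Snhg genes are hosts whose spliced RNA is not translated into a known stable protein in most cases, and which are known mainly for the snoRNAs in their introns.

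Box C/D members are printed to show the C box core TGATGA, in capitals where it lay in the first 25 bases, and the D box CTGA, in capitals where it lay in the last 15 bases. Sequences are those of the GENCODE M21 transcripts on mm10, written 5′ to 3′ as DNA of the RNA strand. Snord104 is added as a gene of 70 bases that had no count in the gene tables. Snord22 lies at chr19:8725866-8725991 (+), Snord15a at chr7:99482785-99482932 (-), Snord15b at chr7:99479563-99479707 (-), Snord17 at chr2:144265979-144266216 (-) and Snord104 at chr11:106500993-106501062 (+).
Snord22: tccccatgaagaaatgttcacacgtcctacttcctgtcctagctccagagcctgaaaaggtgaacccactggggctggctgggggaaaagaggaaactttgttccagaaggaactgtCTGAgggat
Snord15a: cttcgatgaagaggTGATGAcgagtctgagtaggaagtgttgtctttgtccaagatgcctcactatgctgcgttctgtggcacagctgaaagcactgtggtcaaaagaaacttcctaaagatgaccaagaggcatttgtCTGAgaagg
Snord15b: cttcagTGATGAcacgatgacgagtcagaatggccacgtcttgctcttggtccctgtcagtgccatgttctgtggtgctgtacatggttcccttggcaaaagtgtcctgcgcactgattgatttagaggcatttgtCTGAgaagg
Snord17: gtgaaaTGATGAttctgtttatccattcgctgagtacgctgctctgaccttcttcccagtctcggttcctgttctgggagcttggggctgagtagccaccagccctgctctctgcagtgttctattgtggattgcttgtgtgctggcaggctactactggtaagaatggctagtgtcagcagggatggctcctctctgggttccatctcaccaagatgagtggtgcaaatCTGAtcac
Snord104: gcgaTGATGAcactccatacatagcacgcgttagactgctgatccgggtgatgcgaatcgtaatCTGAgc
The D box stood in 4 of 4 box C/D members and the C box core in 3 of 4, the exception being Snord22. Over all 99 named box C/D genes the D box stood in 92.9% and the C box core in 70.7%. Among 6663 other single-transcript genes under 200 bases these letters stood in the same windows of 9.59% and 4.29%. Only the RNA strand was searched.

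Of the box H/ACA members, the near-identical pair Snora73a and Snora73b is printed, with the ACA of the last 6 bases in capitals. Snora73b lies at chr4:132352322-132352526 (-) and Snora73a at chr4:132352775-132352979 (-).
Snora73b: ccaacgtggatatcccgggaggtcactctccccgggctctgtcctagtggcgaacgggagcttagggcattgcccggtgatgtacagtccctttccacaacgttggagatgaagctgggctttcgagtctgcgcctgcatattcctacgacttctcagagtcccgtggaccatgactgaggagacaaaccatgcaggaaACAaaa
Snora73a: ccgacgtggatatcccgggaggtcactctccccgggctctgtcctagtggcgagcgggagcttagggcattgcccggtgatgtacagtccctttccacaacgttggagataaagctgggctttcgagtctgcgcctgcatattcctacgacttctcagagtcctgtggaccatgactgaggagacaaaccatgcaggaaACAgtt
ACA stood in the last 6 bases of 5 of 5 box H/ACA members, of 92.9% of the 42 named genes of the class, and of 16.4% of the other genes under 200 bases. Snora73a and Snora73b were identical at 198 of 205 bases (96.6%), so reads could be split between them and their separate values are uncertain. Snord15a and Snord15b were identical at 96 of 152 aligned positions (63.2%).

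ScaRNAs are known for a CAB box, TGAG in the simplest form. These letters, whether or not they form a CAB box, are in capitals in Scarna6 at chr1:87784556-87784820 (+) and Scarna13 at chr12:105031075-105031349 (-).
Scarna6: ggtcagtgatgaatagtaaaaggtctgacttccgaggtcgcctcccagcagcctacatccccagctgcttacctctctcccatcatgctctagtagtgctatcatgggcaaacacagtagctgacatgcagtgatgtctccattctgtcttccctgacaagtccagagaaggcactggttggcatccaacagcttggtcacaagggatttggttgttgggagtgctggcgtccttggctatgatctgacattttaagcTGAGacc
Scarna13: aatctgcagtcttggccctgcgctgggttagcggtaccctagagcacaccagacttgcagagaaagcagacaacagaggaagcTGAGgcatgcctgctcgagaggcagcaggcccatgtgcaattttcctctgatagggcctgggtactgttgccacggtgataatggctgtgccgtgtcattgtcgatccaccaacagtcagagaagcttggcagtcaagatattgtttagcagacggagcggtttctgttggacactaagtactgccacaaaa
TGAG stood somewhere in 3 of 4 scaRNA members. The same 4 letters stood in 85.0% of 4379 other single-transcript genes of 265 to 414 bases. In Scarna6 the only match overlaps the letters CTGA of a D box near the 3′ end, so it may not be a CAB box.

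The box C/D members had few counts in both libraries and more in replicate 1. Snord17, which guides methylation of ribosomal RNA, had 308 counts in replicate 1 and 107 in replicate 2. Snord22, known as U22 and needed for maturation of the small ribosomal subunit RNA in frog oocytes, had 211 counts in replicate 1 and 2.91 in replicate 2. Snord15a had 108 counts in replicate 1 and 15 in replicate 2, and Snord15b had 77.6 and 8.80 in the same order. Snord17 alone held 49.5% of the class's member counts over both libraries. On the TPM scale Snord15a was highest, with 1012 TPM in replicate 1 and 277 TPM in replicate 2. That scale divides by an effective length, the number of positions a fragment could start at, which was 3.57 and 2.65 bases for Snord15a. Snord22 was listed at 0 TPM in both libraries with an effective length listed as 0, in spite of its counts.

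Among box H/ACA members the Snora73 pair led. Snora73b had 409 counts in replicate 1 and 43.6 in replicate 2, and Snora73a had 342 in replicate 1 and 25.6 in replicate 2. These RNAs, also called U17, act in cutting of the ribosomal RNA precursor. Summed over the pair, which avoids the split of shared reads, there were 750 counts in replicate 1 and 69.2 in replicate 2. Snora74a, known as U19, had 211 counts in replicate 1 and 63.3 in replicate 2. Snora68 had 29.6 counts in replicate 1 and 1.84 in replicate 2, and Snora23 had 16 in replicate 1 and 3 in replicate 2. Snora68 and Snora23 together held under 5% of the class's counts. The TPM of Snora68, 839 in replicate 1 and 0 in replicate 2, rested on effective lengths of 1.18 and 0 bases.

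By counts, the scaRNAs held most of the reads of the 13 small RNA members. Scarna2, a guide for U2 snRNA, had 6413 counts in replicate 1 and 2417 in replicate 2. Scarna10, known as U85 and a guide for U5 snRNA, had 4726 counts in replicate 1 and 1865 in replicate 2. Both were the highest members in each library by counts. Scarna13, known as U93, had 949 counts in replicate 1 and 333 in replicate 2. Scarna6, known as U88, had 452 counts in replicate 1 and 155 in replicate 2. Scarna2 and Scarna10 together held 89.1% of the counts of the scaRNA members and 79.9% of those of all 13 snoRNA and scaRNA members. Per length, Scarna10 averaged 1086 ± 367 TPM and Scarna2 829 ± 323 TPM (SD, n = 2 each), and Scarna10 was the higher of the pair in each library. Scarna13 averaged 340 ± 131 TPM and Scarna6 181 ± 71.3 TPM (SD, n = 2 each), and both lay below that pair in each library.

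All 13 snoRNA and scaRNA members were past 2-fold higher in replicate 1 than in replicate 2, against 8.65% of the 16781 genes with 10 or more summed counts. The difference is the log2 ratio of CPM with 1 count added, replicate 1 over replicate 2, minus its median over those genes, which was -0.12. With 1 library on each side it has no test. Its 95% counting interval (exact, Clopper-Pearson) lay above 0 for 13 of 13, and such intervals cover counting error only, since reads are not independent molecules. A threshold on summed counts also lets in genes that are high in replicate 1 alone. Of the 13, 9 had 10 or more counts in each library, and these 9 were past 2-fold higher too, against 5.26% of the 14347 genes with 10 or more counts in each library. None of the 13 was past 2-fold lower, against 8.41% of all genes tested.

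The size of the difference varied among the classes. Its median was 2.70 for box C/D members (1.33 to 5.57), 3.01 for box H/ACA members (1.54 to 3.50) and 1.27 for scaRNAs (1.16 to 1.35). Snord22, Snord15b, Snora68 and Snora23 had under 10 counts in replicate 2 and became members through replicate 1, unlike any scaRNA. With 10 or more counts in each library the medians were 1.96, 3.02 and 1.28. The scaRNA members were of 265 to 414 bases and the snoRNA members of 126 to 238, so class and length cannot be told apart. Snord22 differed most, by 5.57 (4.38 to 8.24), followed by Snora73a at 3.50 (2.96 to 4.17) and Snora68 at 3.24 (1.74 to 6.83). The 4 scaRNAs lay close together, from 1.16 for Scarna10 to 1.35 for Scarna6. Snord17 at 1.33 and Snora74a at 1.54 lay near the scaRNAs and below the other snoRNA members. In the other table, made by the authors from the reads directly, 11 of 13 were past 2-fold higher, against 8.28% of the genes there. The exceptions were Snord17 at 0.48, with 502 counts in replicate 1 and 491 in replicate 2, and Snora23 at 0.62, with 43 counts in replicate 1 and 38 in replicate 2. On the TPM scale, with 1 added and the median over all genes of -0.23 taken off, 10 of 13 were past 2-fold higher. Without that centring 6 of 13 were, and Scarna2, Scarna6, Scarna13 and Snora74a lay at 0.81 to 0.84. Snord22 has no TPM in either library and Snora68 none in replicate 2, and of the 11 members with a TPM in both, 9 were past 2-fold higher after centring.

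**Figure D1:**
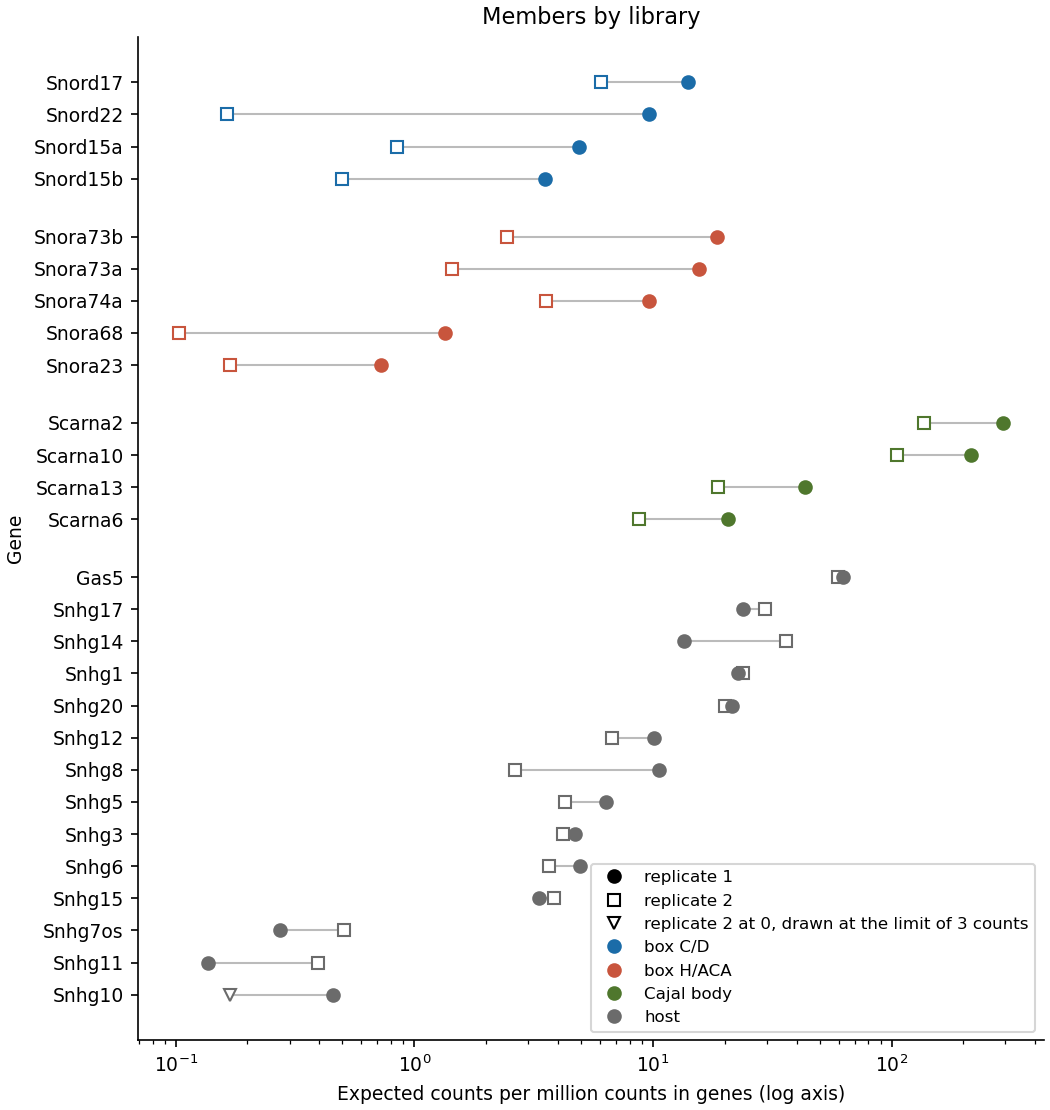
Expected counts as CPM (log axis) of the 27 members in replicate 1 (filled) and replicate 2 (open), by class, with Snhg10 drawn at the limit of 3 counts in replicate 2. All 13 snoRNAs and scaRNAs lie further right in replicate 1, by 1.16 to 5.57 on the centred log2 scale, while most hosts have both points close together.

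Length moved with both counts and difference. Across the 13 members Spearman's rho was 0.90 between length and summed counts and -0.83 between length and difference, as a description over genes of the same 2 libraries. The median difference was 4.41 for the 2 members of 120 to under 140 bases, 2.24 for the 4 of 140 to under 200 bases and 1.33 for the 7 of 200 to 450 bases. Both members of the shortest group, Snord22 and Snora68, had under 10 counts in replicate 2 (2.91 and 1.84). So had Snord15b (8.80) and Snora23 (3) in the next group. Such members passed the threshold on summed counts through replicate 1, so the length pattern rests in part on how members were chosen. Other genes of 120 to 450 bases with 10 or more counts also leaned to replicate 1, with 129 of 429 (30.1%) past 2-fold higher and 78 (18.2%) past 2-fold lower. By length these other genes were past 2-fold higher in 5 of 5 cases from 120 to under 140 bases, 25 of 44 from 140 to under 200 and 99 of 380 from 200 to 450. They include snoRNA genes outside the symbol rule, which make up all 5 of the shortest group and part of the longer groups. The shortest group therefore does not show how other kinds of gene of that length behave. The part of length, fragment size or RNA input in the difference was not tested.

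**Figure D2:**
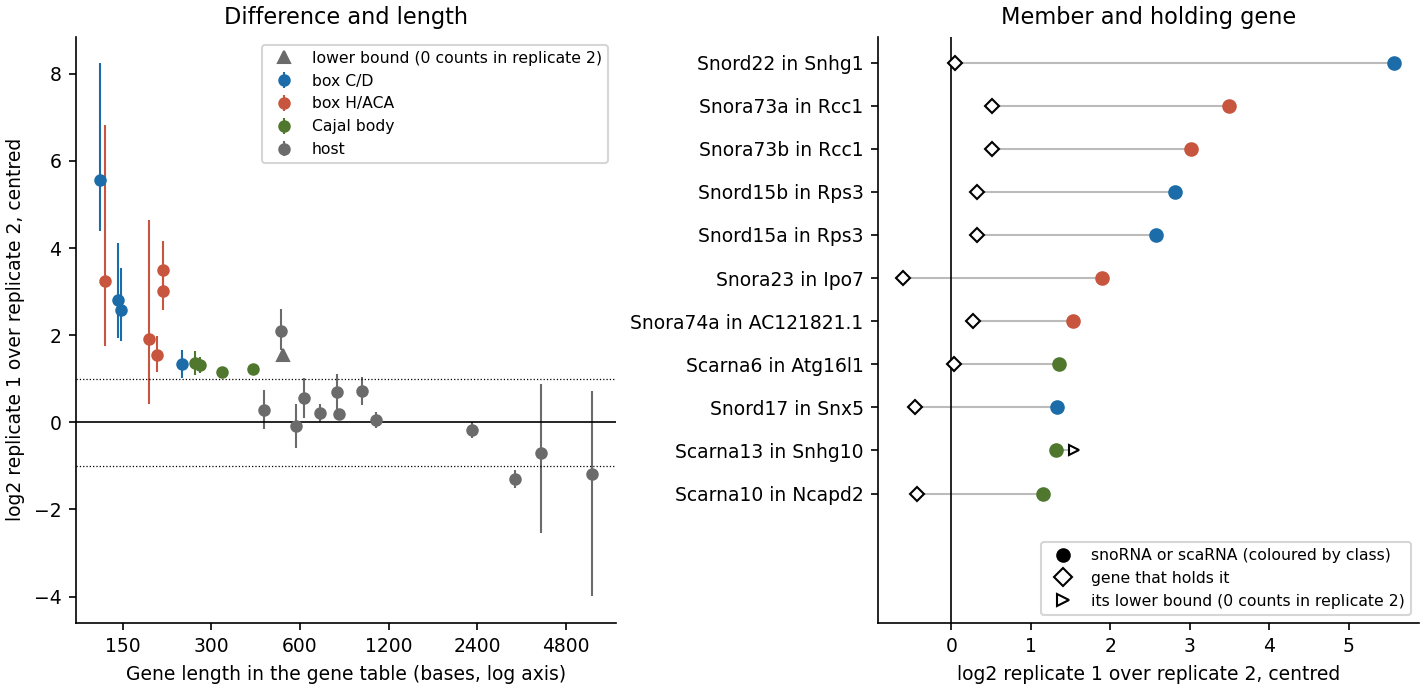
Left, centred log2 difference of replicate 1 over replicate 2 against gene length (log axis), with 95% counting intervals, dotted lines at 2-fold and a triangle for the lower bound of Snhg10. Right, the same difference for 11 snoRNA and scaRNA members (filled) and the gene that holds each (open), where 10 of 11 members lie to the right of their holding gene.

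The host genes had smaller differences between the libraries. Their median difference was 0.20, with 9 of 14 higher and 5 of 14 lower in replicate 1, and 2 (14.3%) past 2-fold in each direction, against 8.65% and 8.41% of all genes. As a share of all counts the 13 small RNAs took 0.0649% of replicate 1 (0.0639 to 0.0660, Wilson 95% interval) and 0.0284% of replicate 2 (0.0276 to 0.0292). The 14 hosts took 0.0185% of replicate 1 (0.0180 to 0.0191) and 0.0196% of replicate 2 (0.0189 to 0.0202). The small RNAs' share was 2.28-fold higher in replicate 1, while the ratio of the hosts' shares, replicate 1 over replicate 2, was 0.948.

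Gas5, a host of several box C/D snoRNAs named for its rise in growth-arrested cells, was the highest host. It had 1379 counts in replicate 1 and 1061 in replicate 2, and averaged 76.9 ± 0.403 TPM (SD, n = 2). Snhg17 had 524 counts in replicate 1 and 522 in replicate 2. Snhg1, whose transcripts hold Snord22, had 500 counts in replicate 1 and 424 in replicate 2. Snhg20 had 470 counts in replicate 1 and 356 in replicate 2. These 4 differed by 0.19, -0.18, 0.05 and 0.21 on the centred log2 scale, all far from 2-fold. By mean TPM, Snhg20 (34.1 ± 2.67 TPM) and Snhg1 (20.8 ± 2.51 TPM) followed Gas5 (SD, n = 2 each), and Snhg8 at 16.1 ± 13.5 TPM (SD, n = 2) was not distinct from Snhg1.

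Snhg12 had 222 counts in replicate 1 and 119 in replicate 2, a difference of 0.71 (0.39 to 1.05). Snhg8 had 233 counts in replicate 1 and 47 in replicate 2, a difference of 2.10 (1.67 to 2.61). It was the only host with 10 or more counts in each library that was past 2-fold higher. Snhg14, the long transcript of the imprinted Snord116 region that runs antisense to Ube3a, went the other way, with 295 counts in replicate 1 and 640 in replicate 2 (-1.30, -1.51 to -1.10). No strand setting is given, so reads of Ube3a may be among its counts. Snhg10 had 10 counts in replicate 1 and 0 in replicate 2, at least 2.93-fold higher if the 10 counts are taken as exact and the 0 as 3 counts. Its counting interval begins at 0.98 on the centred log2 scale. Snhg11 had 3 counts in replicate 1 and 7 in replicate 2, and its interval of -3.99 to 0.72 spans 0. The other table gave Snhg11 540 counts in replicate 1 and 964 in replicate 2, the widest gap between tables of any member. The remaining genes of the host class, Snhg5, Snhg3, Snhg6, Snhg15 and Snhg7os, lay between -0.70 and 0.69.

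Hosts can be spliced or keep the introns that hold the small RNAs. Of the 14 hosts, 6 have transcripts annotated as retained intron. Whether each such transcript keeps an intron that holds a small RNA was not checked. In Gas5 retained-intron transcripts held 56.6% of the TPM in replicate 1 and 65.9% in replicate 2, over 20 of its 25 transcripts. In Snhg1 they held 48.1% in replicate 1 and 61.1% in replicate 2, and in Snhg17 38.0% in replicate 1 and 47.4% in replicate 2. Gas5, Snhg1, Snhg17 and Snhg8 had the lower share of TPM in replicate 1, by 9 points or more, and Snhg5 had 40.6% and 40.3%. Snhg8 had 19.3% in replicate 1 and 35.8% in replicate 2, and Snhg11 was listed at 0 in both. The most abundant single transcript of Gas5 per length was a lincRNA transcript of 502 bases, with 36.2% of the gene's TPM in replicate 1 and 33.9% in replicate 2. By counts it was a retained-intron transcript of 2556 bases, with 364 counts in replicate 1 and 369 in replicate 2. In counts, which favour long transcripts, retained-intron transcripts of Gas5 held 78.4% in replicate 1 and 85.6% in replicate 2, and those of Snhg1 76.4% in replicate 1 and 82.7% in replicate 2. Snhg8 had 35.7% of counts in replicate 1 and 56.9% in replicate 2. By counts the direction turned in Snhg17, with 62.4% in replicate 1 and 60.0% in replicate 2, and Snhg5 had 52.3% in replicate 1 and 40.8% in replicate 2.

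**Figure D3:**
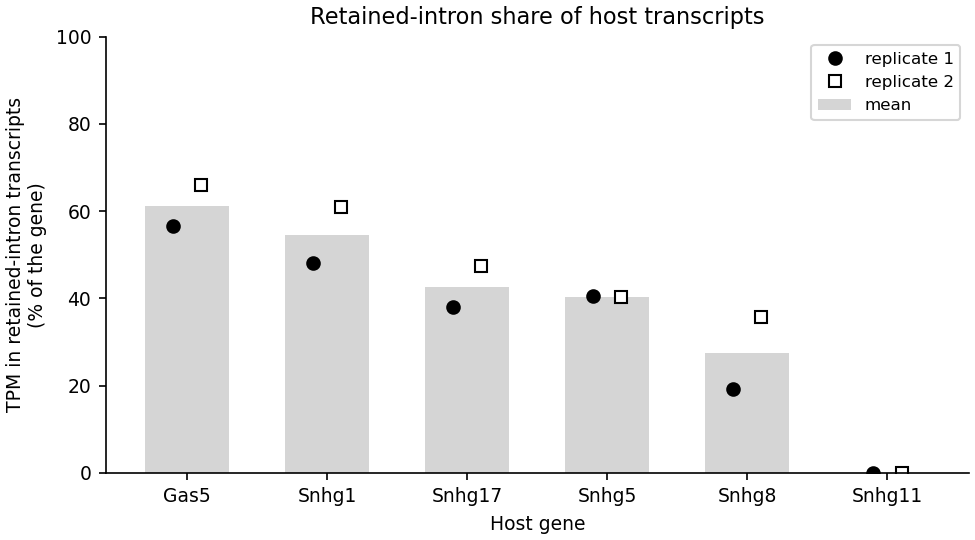
Share of a host gene's TPM in transcripts annotated as retained intron, for the 6 hosts that have such transcripts, with points for replicate 1 (filled) and replicate 2 (open) and bars for their mean. The share is highest in Gas5 and Snhg1, and Snhg11 is listed at 0.

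By the annotation Scarna2 does not lie inside a gene on the same strand. For 11 other small RNA members the gene that holds them is given here. Snora73a and Snora73b lie in an intron of Rcc1, a regulator of chromosome condensation, and within the span of Snhg3. Snord15a and Snord15b lie in Rps3, a ribosomal protein gene. Snord17 lies in an intron of Snx5, Scarna6 in one of Atg16l1, Snora23 in one of Ipo7 and Scarna13 in one of Snhg10. Scarna10 lies in Ncapd2, Snora74a in AC121821.1 and Snord22 in Snhg1, where 5 of 18 transcripts have an exon over it. Reads of such an exon and of the small RNA share sequence, so the quantifier had to divide them.

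In the gene tables most of these small RNA members differed more between libraries than the genes that hold them. The member's difference exceeded that of its holding gene in 10 of 11 cases, each by more than 2-fold, with a median excess of 2.25 on the log2 scale over the 11. The exception was Scarna13 in Snhg10, a gene with 10 counts in replicate 1 and 0 in replicate 2. The 11 cases rest on 9 holding genes, as Rcc1 and Rps3 each hold a pair of members, so they are not independent. Snord22, Snord15b and Snora23 had under 10 counts in replicate 2 and became members through replicate 1, which favours a large excess. Where several genes held a member, that with the most counts was used. Snord15a and Snord15b summed to 186 counts in replicate 1 and 23.8 in replicate 2 (2.73), while Rps3 had 957 in replicate 1 and 669 in replicate 2 (0.33). The Snora73 pair differed by 3.23, while Rcc1 had 150 counts in replicate 1 and 92 in replicate 2 (0.51). Scarna10 had 31.9 counts per count of Ncapd2 in replicate 1 and 10.6 in replicate 2. Snord17 had 0.0660 counts per count of Snx5 in replicate 1 and 0.0191 in replicate 2. In the other table Snord17 had 502 counts in replicate 1 and 491 in replicate 2. Members and holding genes were not compared in that table.

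Most named small RNA genes had no count at all. Of the 150, 121 were at 0 in the gene tables of both libraries, and none of the 96 genes under 120 bases had a count. Among other genes, 0 of 2309 under 100 bases and 0 of 1921 of 100 to under 120 bases reached 10 summed counts. Missing the threshold at these lengths was therefore not particular to the named genes. All 16 small RNA genes with a count above 0 but under the threshold were at 0 in replicate 2. These 16 had only 0.14 to 8 counts in replicate 1, and the matching share over all genes is not given. No conclusion is drawn from their absence in replicate 2. In 105 of the 150 the effective length was listed as 0 in both libraries, the longest of 129 bases, and 5 of these had any count. Members began at 126 bases, and all 7 named genes of 200 to 450 bases were members. Snord118 (U8) and Snord13 (U13), which act in ribosomal RNA processing, had no count, and no gene carried the symbol Snord3a.

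Their holding genes were present. Of 129 small RNA genes that were not members and lie in a gene on the same strand, 87 lie in one at 10 TPM or more and 125 in one at 1 TPM or more. The genes given above as holding members had a median of 19.6 TPM, and those that hold small RNA genes outside the members 24.1 TPM. Hspa8, at 205 TPM, holds Snord14c, Snord14d and Snord14e, none with a count in the gene tables. Gas5 holds 4 of the named genes, all without a count, and Snhg14 holds 17 copies of the Snord116 type, all at 0 in both kinds of table.

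The other table listed more of them. In it, 56 of the 150 small RNA genes had 10 or more counts: 31 of box C/D, 17 of box H/ACA and 8 of the Cajal body class. Of the 121 genes at 0 in the gene tables, 68 had some count there. Snord104, printed above, had 88 counts in replicate 1 and 34 in replicate 2, and Snord118 had 41 in replicate 1 and 66 in replicate 2. Snora31 had 56 in replicate 1 and 115 in replicate 2, the highest sum of any gene seen in that table alone. The 43 genes that reached the threshold there and not in the gene tables had a median difference of 0.68, with 13 (30.2%) past 2-fold higher in replicate 1 and 5 (11.6%) past 2-fold lower, against 8.28% and 11.4% of all genes in that table. For the 13 members the median log2 ratio of the gene table over the other table was -0.29, and for the 14 hosts it was -0.63. Of the 27 members 5 were past 2-fold lower in the gene table, against 52.4% of 26209 genes. None of the 27 was past 2-fold higher in it, against 0.561%. The 26209 genes had 10 or more counts in either kind of table, while members needed 10 in the gene table. Genes seen in the other table alone thus entered only the background, and no conclusion is drawn from these shares.

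**Figure D4:**
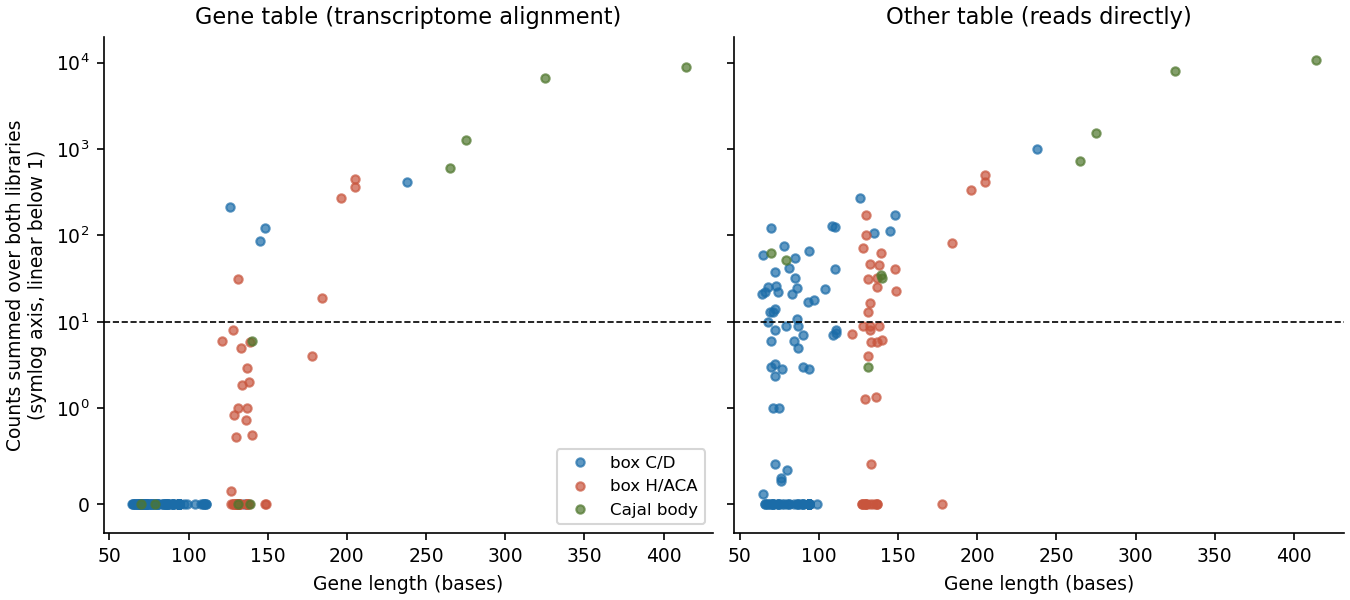
Counts summed over both libraries (symlog axis, linear below 1) against gene length for the 150 named snoRNA and scaRNA genes, in the gene table (left) and the other table (right), with a dashed line at 10 counts. In the gene table no gene under 120 bases has a count, and 56 genes reach the line in the other table.

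Transcripts of genes for proteins that bind and process these RNAs were all detected, and their centred count differences between libraries lay within 2-fold. No protein was measured. Of a list of 39 genes, 39 were at 1 TPM or more and 8 at 10 TPM or more, and none was past 2-fold in either direction, against 8.65% of all genes past 2-fold higher and 8.41% lower. All 39 had 10 or more counts in each library, and 5.26% of all genes with that minimum were past 2-fold higher. The differences of the 39 ran from -0.72 to 0.97, with a median of 0.00, beside a median of 0 by construction over all genes. By TPM without centring, Dkc1, Smn1 and Dbr1 of the list were more than 2-fold lower in replicate 1, and none was more than 2-fold higher. Highest were Smg1, a kinase of nonsense-mediated decay that also removes spliced host transcripts, at 70.6 ± 24.5 TPM, and Ncl, the nucleolar protein nucleolin, at 44.2 ± 18.2 TPM. Tgs1, which adds the trimethyl cap of independently transcribed snoRNAs, averaged 43.7 ± 6.68 TPM, Npm1 35.4 ± 16.2 TPM and the exonuclease Xrn2 33.1 ± 5.26 TPM (SD, n = 2 each). Of the box C/D core proteins, Nop56 averaged 23.6 ± 7.95 TPM and the methyltransferase Fbl 5.23 ± 1.96 TPM. Dkc1, the pseudouridine synthase of box H/ACA particles, averaged 4.93 ± 2.64 TPM (SD, n = 2 each). Fbl had the highest difference of the list, 194 counts in replicate 1 and 86.4 in replicate 2, and Ncl the lowest, 2778 in replicate 1 and 4023 in replicate 2.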

How the data were processed

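The 2 libraries of 1 group, ribosomal RNA-depleted total RNA of nuclei, were analysed. The build is mm10 and the annotation GENCODE M21, per the deposited text notes. The deposited gene and transcript tables, made from a transcriptome alignment, hold expected counts, estimated reads without normalisation, per the file headers. TPM values, per the file headers, were deposited as estimates per effective length scaled to a common sum. Deposited isoform percent values give a transcript's share of its gene's TPM, per the file headers, and retained-intron shares were summed from deposited transcript TPM. The other table was made by the authors from the reads directly and holds estimated counts and TPM. The sources used here do not give the aligner, the quantifiers, their versions or the strand setting.

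Genes under a symbol of the rule were joined by identifier, and the other table was summed to genes. Numeric identifiers and spike-ins were left out. Differences used CPM with 1 count added and were centred on 16781 genes, called past 2-fold, with no test, as each side had 1 library. Counting intervals are at 95% and a count of 0 is limited at 3 counts. Positions, biotypes and sequences came from GENCODE M21, and 1 holding gene is not reported here. A chi-square statistic of 91.3 per degree of freedom over 14347 genes shows only that they are not a single library deposited again. The calculation of the difference was checked on simulated counts. Members and lists were chosen with earlier results of these data known. Named were, per class, the 5 highest by mean TPM and by counts, the 3 largest differences each way at 50 or more counts, the 2 on each side of the threshold, 9 genes in every case, and the 5 highest proteins. Others named here, such as Snord104, Snora31 and core proteins, were chosen after their values were seen. Alternatives were other priors, thresholds, scalings, the other table and leaving out each replicate. TMM factors came from edgeR 4.0.16 in R 4.3.3 on rounded expected counts. Other steps used Python 3.11.15, pandas 2.3.3, numpy 2.4.6, matplotlib 3.10.9 and scipy 1.17.1.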

Additional observations from a re-analysis of the deposited data

How the results depend on the processing

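No paired analysis was possible because the study has 1 group. Of 126 values recomputed under the alternatives, 89 stayed within the replicate or counting spread or within 1.5 times, 37 moved further and 0 reversed. For a share the spread was that of the 2 replicates, so leaving 1 out always stayed within it. That spread was also wide. The box H/ACA median TPM of 277 counted as within it at 0 with no filter and at 30.8 in the other table. The 89 are therefore no measure of stability. The 13 small RNAs past 2-fold higher in replicate 1 numbered 10 to 13 under other priors, scalings and tables, except 6 with TPM and no centring. A minimum of 10 counts in each library left 9 small RNA genes, and all 9 were past 2-fold higher. With no filter, 22 of 29 small RNA genes with a count were past 2-fold higher. Of these 29, 16 had under 10 summed counts and were at 0 in replicate 2, where few counts suffice to pass 2-fold. The share over all genes with a count is not given, so no conclusion is drawn from the 22. Hosts past 2-fold higher numbered 1, and hosts past 2-fold lower 1, with 10 counts in each library. Hosts past 2-fold lower also numbered 1 with a prior of 5 counts, with TPM and in the other table. The cause of these moves was not tested, except that fewer genes enter with 10 counts in each library.

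Members in the other table numbered 31 for box C/D, 17 for box H/ACA and 8 for scaRNAs, and box H/ACA members numbered 3 with 5 counts in each library. Leaving out a replicate gave 2 to 4 box C/D and 3 to 5 box H/ACA members. The mean share of counts was 0.00198% for box C/D, 0.00268% for box H/ACA, 0.0420% for scaRNAs and 0.0190% for hosts. Without replicate 1 the small RNA shares were 0.000754%, 0.000774% and 0.0269%, and without replicate 2 they were 0.00321%, 0.00459% and 0.0571%. As a mean share of TPM the 4 classes, in the same order, had 0.135%, 0.132%, 0.244% and 0.0214%, and in the other table the hosts' share was 0.0201%. The median TPM of members was 354 for box C/D, 277 for box H/ACA, 584 for scaRNAs and 9.16 for hosts. In the other table it was 42.0 for box C/D, 30.8 for box H/ACA, 168 for scaRNAs and 4.34 for hosts. With no filter it was 0 for box C/D, 0 for box H/ACA and 44.7 for scaRNAs. With a replicate left out it ranged from 164 to 543 for box C/D, 64.2 to 467 for box H/ACA and 424 to 745 for scaRNAs, replicate 2 alone giving the lower value.

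The median difference between libraries for box C/D was 2.37 with a prior of 5 counts, 1.53 with TPM (2.09 over the 3 members with a TPM, without Snord22), 2.08 in the other table and 1.96 with 10 counts in each library. For box H/ACA it was 2.17 with a prior of 5, 2.57 with TPM and 1.59 with no filter. For scaRNAs it was 1.15 with no centring, 1.04 with TPM and 1.38 in the other table. For hosts it was 0.081 with no centring and 0.37 in the other table. The median of gene table over other table for small RNAs was -0.86 to -0.10 when a replicate was left out. The median retained-intron share, 41.5% of TPM, was 45.1% in the other table and 53.9% by counts. Of the 9 box C/D and box H/ACA members, 4 had fewer than 10 counts in replicate 2, which widens their intervals.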

Other observations

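Guide RNAs and related small RNAs outside the symbol rule gave these values. U3, the box C/D snoRNA of ribosomal RNA cleavage, is annotated as Rnu3a and Rnu3b. The 2 Rnu3a entries summed to 286 counts in replicate 1 and 31 in replicate 2, a centred log2 difference of 2.98. Rnu3b entries of 215 bases each had 104 counts in replicate 1 and 97.8 in replicate 2, and those of 216 bases each had 165 in replicate 1 and 0 in replicate 2. Values were identical within each of these sets, so their copies could not be told apart. Terc, the telomerase RNA, which has a box H/ACA part and a CAB box, had 90 counts in replicate 1 and 9 in replicate 2, a difference of 3.0. Terc is 423 bases long. Rn7sk, the RNA that restrains the elongation factor P-TEFb, differed by 0.45 at 331 bases, and Rpph1, the RNA of RNase P, by 0.30 at 319 bases. The 2 entries of Rmrp, the RNA of RNase MRP, differed by 3.85 at 281 bases and 0.79 at 271 bases. Of 1409 further genes annotated as snoRNA or scaRNA, 30 (2.13%) had 10 or more summed counts, against 30.2% of all genes. Of these 30, 20 (66.7%) were past 2-fold higher in replicate 1 and 0 past 2-fold lower, against 8.65% and 8.41% of all genes. The most abundant, Gm22009, had 18692 counts in replicate 1 and 23052 in replicate 2, a difference of -0.49. Entries of Rnu3a and Rnu3b made up 6 of the 20, so the entries are not independent. Many of the 20 had under 10 counts in replicate 2, such as Gm25835 with 69 counts in replicate 1 and 1 in replicate 2. The threshold on summed counts let these in through replicate 1, so no conclusion is drawn from the share of 66.7%.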
